A study of Mus musculus with 30 samples.

Results

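Calcium, sodium and TRP channel genes of sorted mouse islet cells are described here over 5 transgenic groups. The members are the genes whose symbol starts with Cacna, Cacnb, Cacng, Scn and a digit, or Trpa, Trpc, Trpm or Trpv and a digit, with Trpc4ap left out, which gave 39 of the 17775 genes in the expression table. They are 8 Cacna1, 4 Cacna2d, 4 Cacnb and 3 Cacng genes, 6 sodium channel pore genes and 3 sodium channel beta subunit genes, and 5 Trpc, 5 Trpm and 1 Trpv gene. No symbol starting with Trpa was in the table.

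Voltage-gated calcium channels consist of a pore subunit (Cacna1 genes) with an alpha2delta subunit (Cacna2d) and a cytoplasmic beta subunit (Cacnb) that bring the pore to the membrane and set its gating, while most Cacng proteins accompany AMPA-type glutamate receptors. Voltage-gated sodium channels (Scn pore genes) carry the upstroke of the action potential, and TRP channels are cation channels that respond to calcium, heat, lipids or receptor signalling. In islet endocrine cells these channels shape electrical activity and the calcium entry that triggers hormone release.

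The data are bulk RNA-seq of cells isolated by fluorescence-activated sorting. Alpha-cells made to express Pdx1, a transcription factor of beta-cells, in mice with Glucagon-rtTA, TetO-Cre, the R26YFP reporter, CAGPdx1 and RIP-DTR, which were given diphtheria toxin (DT), gave 6 libraries (alpha Pdx1 DT). Insulin-mCherry beta-cells of 3-month-old mice gave 7 libraries (beta). Alpha-cells of 3-month-old mice with the same Glucagon-rtTA, TetO-Cre, R26YFP and CAG-Pdx1 transgenes, without RIP-DTR and without toxin, gave 5 libraries (alpha Pdx1). Alpha-cells of toxin-treated mice with Glucagon-Venus plus RIP-DTR gave 4 libraries (alpha DT), and alpha-cells of 3-month-old mice with Glucagon-Venus alone gave 8 (alpha). Toxin was given at 2 months of age and cells were taken 30 days later. RIP-DTR puts the toxin receptor under an insulin promoter, so that toxin kills beta-cells, and Glucagon-rtTA, driven by a glucagon promoter, acts on TetO-Cre, so that Cre is made in alpha-cells and Pdx1 is then expressed from CAG-Pdx1. RIP-DTR always came with the toxin, so the 2 cannot be told apart. Glucagon-rtTA, TetO-Cre and the change of reporter from Venus to YFP always came with Pdx1, so these cannot be told apart from Pdx1. Insulin-mCherry came with beta-cells alone, so this strain cannot be told apart from the cell type. Nothing in the labels ties a library to an animal of its own, so a p-value here speaks only to the spread between these samples, which may be technical.

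Values are quantile-normalized log2 values, in which every library shares 1 distribution with quartiles of 5.93, 8.55 and 10.37. They are not set per gene length, so levels are compared between groups and never between genes. Read numbers were not given in the table. In bulk samples, fewer cells that express a gene and less RNA per cell cannot be told apart. A set of 5 libraries stood apart from their labels. Pdx1 itself was at 11.23 in the library labelled alpha 8, against 3.66 to 5.61 in the other alpha libraries, at 5.51 in the library labelled alpha Pdx1 DT 5, against 11.53 to 12.59 in the other 5 of that group, and at 8.61 in the library labelled alpha Pdx1 5. Gcg, the glucagon gene, held the top value of 22.57 in the libraries labelled beta 1 and beta 5. Over genes, the pair of alpha Pdx1 DT 5 with alpha 4 correlated at 0.993, the highest of 435 pairs. Calls are also given without these 5 libraries (beta 1 and 5, alpha Pdx1 DT 5, alpha Pdx1 5 and alpha 8). The 5 were picked on these same data, by values such as those of Pdx1 and Gcg. Leaving them out can by itself widen the gap between groups and narrow their spread, most of all in comparisons by Pdx1. Fits without them, and their smaller p-values, are therefore no independent support for a call. A fold change is on the log2 scale and followed by its standard error, unless SD is named. Adjusted p-values are from limma with Benjamini-Hochberg adjustment over 16633 genes, with a threshold of 0.05. As a check of the cell types, 8 of 8 beta-cell markers were higher and 8 of 8 alpha-cell markers lower in beta than in alpha, and Pdx1 was higher in alpha Pdx1 than in alpha by 5.36 ± 1.07 (adjusted p = 0.00604). Of the 39 members, 38 reached 5 or more in at least 4 libraries and were tested, and Cacng5 was not, with 3 such libraries and values of 0.76 to 5.88.

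Forced Pdx1 came with higher levels of 4 channel genes in alpha Pdx1 than in alpha, and none was lower. These were Cacna2d3, an alpha2delta subunit of calcium channels, Trpm3, a heat- and steroid-sensitive cation channel found in beta-cells, Trpm5, a calcium-activated monovalent cation channel that beta-cells and taste cells use, and Scn9a, a sodium channel pore. They are 4 of the 38 members tested, against 4.33% of all genes tested (2.36% higher and 1.98% lower), and 8 members were at an unadjusted p under 0.05. Their promoters, the 250 bases before the RefSeq transcript start (GRCm38.p6), are shown because these are the members that were higher with the transcription factor. TAAT and its reverse complement ATTA, the core of homeodomain binding motifs, are in capitals.

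Trpm5, chr7:143094643-143094892, minus strand: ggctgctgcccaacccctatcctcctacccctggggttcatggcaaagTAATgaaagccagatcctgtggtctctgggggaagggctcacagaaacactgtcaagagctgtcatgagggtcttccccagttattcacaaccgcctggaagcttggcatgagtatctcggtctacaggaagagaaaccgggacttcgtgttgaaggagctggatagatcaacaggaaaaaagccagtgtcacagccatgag
Scn9a, chr2:66634963-66635212, minus strand: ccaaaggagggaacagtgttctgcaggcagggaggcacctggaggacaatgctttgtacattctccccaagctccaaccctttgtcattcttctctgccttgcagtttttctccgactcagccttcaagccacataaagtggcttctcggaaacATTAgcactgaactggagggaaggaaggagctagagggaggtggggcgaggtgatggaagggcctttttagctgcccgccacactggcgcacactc
Cacna2d3, chr14:29721865-29722114, minus strand: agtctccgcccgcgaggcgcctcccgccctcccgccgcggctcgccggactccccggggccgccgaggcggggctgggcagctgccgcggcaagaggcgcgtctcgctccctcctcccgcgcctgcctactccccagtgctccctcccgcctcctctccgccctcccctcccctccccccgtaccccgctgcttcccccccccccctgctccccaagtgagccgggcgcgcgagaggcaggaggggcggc
Trpm3, first start, chr19:22138796-22139045, plus strand: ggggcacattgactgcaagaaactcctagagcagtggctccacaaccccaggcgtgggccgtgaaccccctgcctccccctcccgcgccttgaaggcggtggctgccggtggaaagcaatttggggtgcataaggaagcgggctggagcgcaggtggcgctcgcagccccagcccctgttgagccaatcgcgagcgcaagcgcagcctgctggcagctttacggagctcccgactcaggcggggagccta
Trpm3, second start, chr19:22447958-22448207, plus strand: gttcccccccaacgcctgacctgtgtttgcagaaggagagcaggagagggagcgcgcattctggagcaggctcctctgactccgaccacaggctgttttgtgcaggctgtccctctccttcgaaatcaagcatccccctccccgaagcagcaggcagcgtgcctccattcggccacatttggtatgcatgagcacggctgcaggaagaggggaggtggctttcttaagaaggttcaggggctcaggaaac

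The Trpm5 and Scn9a windows held 1 match each, and the Cacna2d3 window and both Trpm3 windows held 0. The core was present in 54.9% of 32851 promoter windows of that length, and the longer TAATTA, searched the same way, was in 4.84% of them and in 0 of these 5. GC content was 80.0% in the Cacna2d3 window, 66.4% and 59.2% in the Trpm3 windows, 54.4% in the Scn9a window and 52.8% in the Trpm5 window, against a median of 52.4% over all windows.

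Cacna2d3 (chr14:28904943-29721864, minus strand) stood at 11.54, 11.65, 11.23, 11.08 and 10.44 in the alpha Pdx1 libraries, against a lowest value of 5.48, a median of 7.10 and a highest of 11.61 in the alpha libraries. Every alpha Pdx1 library was above every alpha library but 1, the library labelled alpha 8 at 11.61, whose next neighbour was at 7.93. The log2 fold change was 3.74 ± 0.73 (adjusted p = 0.00417). Without the 5 libraries the groups did not overlap, and it was 4.52 ± 0.35 (adjusted p = 1.85e-10).

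Trpm3 (chr19:22139046-22995410, plus strand) was at 9.87, 10.15, 9.07, 10.83 and 8.67 in the alpha Pdx1 libraries, against 5.05 at lowest, 5.83 at the median and 8.79 at highest in the alpha libraries. The groups touched only where the library labelled alpha Pdx1 5, at 8.67, met the library labelled alpha 8, at 8.79. Trpm3 was higher in alpha Pdx1 by 3.61 ± 0.55 (adjusted p = 7.56e-04), and by 4.25 ± 0.38 without the 5 libraries (adjusted p = 2.93e-09).

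Trpm5 (chr7:143069153-143094642, minus strand) was at 7.54, 7.78, 6.81, 7.96 and 6.96 in the alpha Pdx1 libraries, against a lowest of 2.09, a median of 5.22 and a highest of 7.98 in the alpha libraries. The SD was 0.51 over the alpha Pdx1 libraries and 1.95 over the alpha libraries, and the library labelled alpha 8 was the highest of both groups. The fold change was 2.43 ± 0.68 (adjusted p = 0.0363). Leaving out any 1 of 8 of the 13 libraries (alpha 2, 3, 4 or 6, or alpha Pdx1 1, 2, 3 or 4) ended this call. Without the 5 libraries the groups did not overlap, and the fold change was 2.98 ± 0.57 (adjusted p = 7.76e-04).

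Scn9a (chr2:66480080-66634962, minus strand) moved over a smaller range. It was at 12.72, 12.49, 12.59, 12.88 and 12.03 in the alpha Pdx1 libraries, against a lowest of 10.78, a median of 11.42 and a highest of 12.55 in the alpha libraries. The library labelled alpha 8, at 12.55, was again the alpha library within the alpha Pdx1 range. Scn9a was higher by 1.11 ± 0.22 (adjusted p = 0.00398), and by 1.40 ± 0.21 without the 5 libraries (adjusted p = 1.85e-05). The transcript Gm13629 lies on the opposite strand of Scn9a and was higher in alpha Pdx1 as well, by 1.26 ± 0.36 (adjusted p = 0.0376). The sources used here do not give whether counting used strand, so reads of this pair cannot be told apart.

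**Figure D1:**
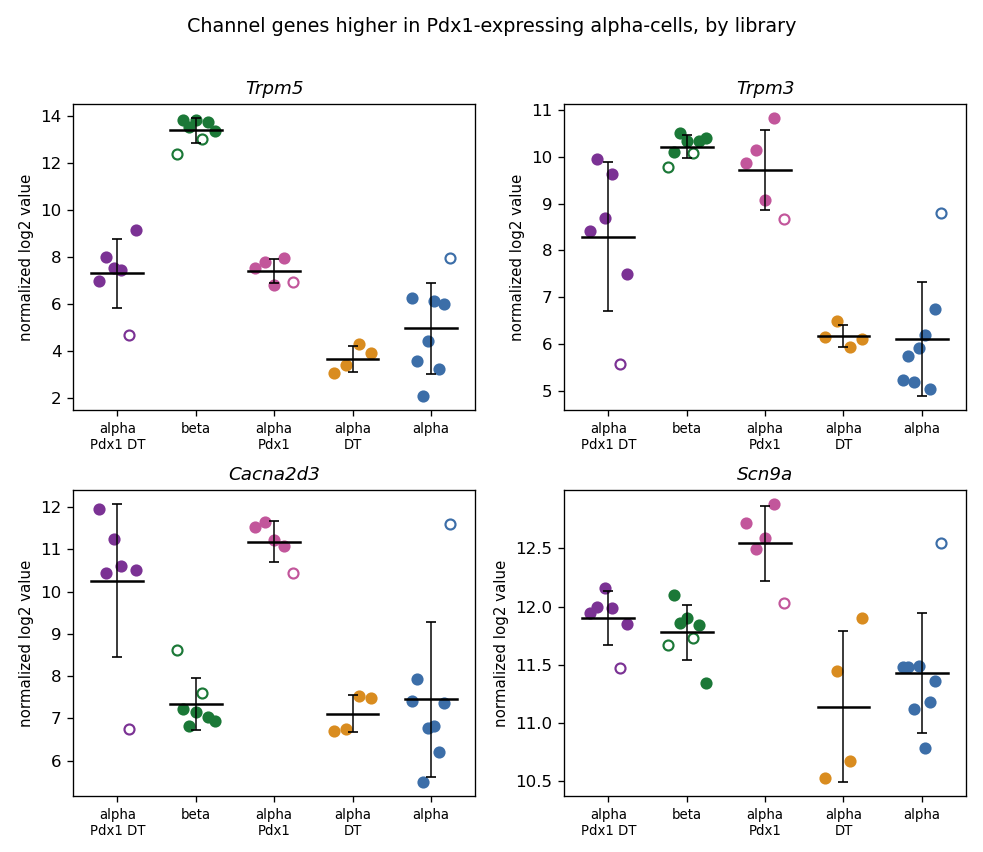
Normalized log2 value of Trpm5, Trpm3, Cacna2d3 and Scn9a in each library (points) of the 5 groups, with the group mean (line) and SD (bar). Open points are the 5 libraries that stood apart, such as the library labelled alpha 8, which lies at the level of the alpha Pdx1 points in all 4 panels.

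Without the 5 libraries, 6 members passed in alpha Pdx1 against alpha, against 6.61% of all genes. Trpc4, a receptor-operated cation channel, joined at 1.80 ± 0.40 (adjusted p = 0.00315), and Cacna1e, the R-type calcium channel pore, joined as lower by 2.47 on the log2 scale (fold change -2.47 ± 0.66, adjusted p = 0.0175). The ribosomal RNA gene Rn18s-rs5 differed between these groups too, with 16.90 to 18.27 in alpha Pdx1 and 17.68 to 20.54 in alpha libraries (fold change -1.98 ± 0.48, adjusted p = 0.0169). With Rn18s-rs5 as a covariate, Trpm3 alone passed, at 3.75 (adjusted p = 0.0166), and Cacna2d3 was at 3.44 (adjusted p = 0.0836), Scn9a at 1.04 (adjusted p = 0.0743) and Trpm5 at 2.88 (adjusted p = 0.116), while the share of all genes called fell to 0.685%. The part of Rn18s-rs5 in these differences was not tested beyond this fit.

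Adding the toxin, alpha Pdx1 DT against alpha had 5 members higher and 0 lower, against 7.81% of all genes (4.06% higher and 3.75% lower), and 11 members were at an unadjusted p under 0.05. Cacna2d3 was higher by 2.81 ± 0.69 (adjusted p = 0.0169), Trpm3 by 2.18 ± 0.52 (adjusted p = 0.0140), Trpm5 by 2.34 ± 0.65 (adjusted p = 0.0271), Trpc4 by 1.81 ± 0.43 (adjusted p = 0.0132) and Cacna2d2, another alpha2delta gene, by 2.56 ± 0.72 (adjusted p = 0.0276). This comparison shares its alpha libraries with the one above. In the alpha Pdx1 DT libraries Cacna2d3 ran from 6.75 through a median of 10.56 to 11.97, Trpm3 from 5.58 through 8.55 to 9.95, and Trpm5 from 4.69 through 7.51 to 9.16. The lowest value of each of the 3 genes came from the library labelled alpha Pdx1 DT 5, in which Pdx1 was also low. Trpc4 was at 5.67 in that library and at 7.26 to 8.17 in the other 5, against 3.98 to 7.65 in alpha libraries with a median of 5.57. Scn9a, at 11.47 to 12.16 in alpha Pdx1 DT, differed from alpha by 0.47 ± 0.21 and did not pass (adjusted p = 0.147).

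Without the 5 libraries, 9 members passed in alpha Pdx1 DT against alpha, and 20.3% of all genes passed as well, so the gain is not a result about the members. Cacna2d3 was then higher by 4.11 ± 0.33, Trpm3 by 3.11 ± 0.36, Trpm5 by 3.29 ± 0.53, Trpc4 by 2.45 ± 0.37 and Cacna2d2 by 3.05 ± 0.67. The sodium channel genes Scn9a (0.72 ± 0.19) and Scn2b (1.40 ± 0.39) and the N-type calcium channel pore gene Cacna1b (0.82 ± 0.26) also passed as higher, and Cacna1e as lower (-2.26 ± 0.62, adjusted p = 0.0100). Leaving out alpha Pdx1 DT 1 or 6 alone ended the Cacna2d3 call, and leaving out alpha 1 or 6 or alpha Pdx1 DT 1, 4 or 6 ended that of Cacna2d2. The Cacna2d2 call also ended with an offset added to the values. The Trpm5 call ended without any 1 of alpha 3, 4 or 6 or of alpha Pdx1 DT 1, 2, 3, 4 or 6. Rn18s-rs5 was higher in these libraries, at 19.87 to 22.57 in alpha Pdx1 DT and 17.68 to 20.54 in alpha. The mean of a leukocyte and macrophage list was 4.13 to 10.17 in alpha Pdx1 DT and 4.20 to 7.01 in alpha, with 1 of its 11 genes higher. Limma called 0 members with either as a covariate, with 7 members at an unadjusted p under 0.05 for Rn18s-rs5 and 9 for the leukocyte list, and called 0% and 0.517% of all genes in those fits. The fold changes were then 3.06 and 2.43 for Cacna2d3, 2.06 and 2.05 for Trpm3, 1.96 and 1.94 for Trpm5, 1.72 and 1.78 for Trpc4 and 3.03 and 2.07 for Cacna2d2, with adjusted p-values from 0.0776 to 0.322.

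Where both groups had received the toxin, alpha Pdx1 DT against alpha DT, 3 members were higher and 0 lower, against 2.1% of all genes (1.78% higher and 0.319% lower), and 6 members were at an unadjusted p under 0.05. Trpm5 was at 6.98, 8.03, 7.55, 7.47, 4.69 and 9.16 in alpha Pdx1 DT libraries, against 3.06, 3.44, 4.30 and 3.95 in alpha DT libraries. The groups did not overlap, and the fold change was 3.62 ± 0.78 (adjusted p = 0.0122). Cacna2d3 was higher by 3.15 ± 0.82 (adjusted p = 0.0398), with 6.71, 6.74, 7.52 and 7.48 in alpha DT, a range that the library labelled alpha Pdx1 DT 5, at 6.75, lay in. Leaving out any 1 of 8 of the 10 libraries (alpha DT 1, 2 or 3, or alpha Pdx1 DT 1, 2, 3, 4 or 6) ended the Cacna2d3 call. Trpm3 was at 6.16, 6.49, 5.94 and 6.12 in alpha DT and differed by 2.12 ± 0.62, which did not pass (adjusted p = 0.0634). Without the 5 libraries Trpm3 passed at 2.66 ± 0.41 (adjusted p = 5.83e-05), Cacna2d3 was at 3.85 ± 0.37 and Trpm5 at 4.15 ± 0.61, and Scn9a joined at 0.85 ± 0.22 (adjusted p = 0.0169).

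Cacna1c, the L-type calcium channel pore gene of many excitable cells, was the member that was lower after toxin alone. It was at 11.38, 11.10, 11.51 and 11.65 in alpha DT libraries, against 11.74 at lowest, 12.21 at the median and 12.64 at highest in alpha libraries. Every alpha DT library was below every alpha library, and the fold change was -0.76 ± 0.17 (adjusted p = 0.0119), or -0.75 ± 0.18 without the 5 libraries. Leaving out alpha DT 2, the lowest library, ended the call. In alpha Pdx1 DT, Cacna1c was at 11.55 to 12.51, higher than in alpha DT by 0.68 ± 0.18 (adjusted p = 0.0392), a call that ended without any 1 of 7 of the 10 libraries (alpha DT 1, 2 or 3, or alpha Pdx1 DT 1, 2, 4 or 6) and without the 5 libraries (0.60 ± 0.19, adjusted p = 0.0601). These comparisons share the alpha DT libraries. The interaction, which tests whether the toxin effect differed with Pdx1, was 0.68 ± 0.24 for Cacna1c, with an unadjusted p of 0.00825 and an adjusted p of 0.425. Limma called 0 of 38 members in the interaction, and 0% of all genes, with 1 member, Cacna1c, and 1527 of all genes at an unadjusted p under 0.05.

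Cacna1i, a T-type calcium channel pore gene that opens at low voltage, was higher in alpha DT. Its values were 5.27, 7.34, 6.43 and 3.05 in alpha DT libraries, against a lowest of 0.86, a median of 2.20 and a highest of 3.31 in alpha libraries. In alpha DT, 3 libraries were above all alpha libraries and 1 was among them, with a fold change of 3.29 ± 0.87 (adjusted p = 0.0328). Cacna1i was close to the bottom of the table, with the lowest value of the library in 5 of 30 libraries, and it passed the filter through 5 libraries, of which 3 were alpha DT. Together with Cacna1c, 2 members passed in alpha DT against alpha, 1 higher and 1 lower, against 3.26% of all genes (1.57% higher and 1.7% lower). Leaving out alpha 1, alpha 2, alpha DT 2 or alpha DT 3 ended the Cacna1i call.

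Cacna2d2 was at 5.74, 7.38, 7.80 and 3.95 in alpha DT and at 1.86 to 5.78, with a median of 3.86, in alpha, a difference of 2.54 ± 0.82 that did not pass (adjusted p = 0.0746) and passed without the 5 libraries at 2.61 ± 0.72 (adjusted p = 0.0413). In mice with forced Pdx1 it was the member that rose with the toxin, 1 of 38, against 9.22% of all genes (4.83% higher and 4.39% lower), with 6 members at an unadjusted p under 0.05. Its values were 7.98, 5.70, 6.0, 8.12, 4.13 and 5.49 in alpha Pdx1 DT libraries, against 3.84, 3.74, 1.93, 3.06 and 2.25 in alpha Pdx1 libraries. The groups did not overlap, and the fold change was 3.27 ± 0.81 (adjusted p = 0.0125), or 3.51 ± 0.77 without the 5 libraries. Cacna2d2 was low, with 5 or more in 12 of 30 libraries and every alpha Pdx1 value under the first quartile of 5.93. Over the alternatives this fold change was 1.54 at lowest. Rn18s-rs5 did not overlap between these groups either, at 19.87 to 22.57 in alpha Pdx1 DT and 16.90 to 18.27 in alpha Pdx1. With Rn18s-rs5 as a covariate Cacna2d2 was at 4.28 ± 1.38 (adjusted p = 0.995). In that fit limma called 0% of all genes, with 7 members at an unadjusted p under 0.05.

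Some markers of other cells differed along with the toxin. Sst, the somatostatin gene of delta-cells, was at 15.46, 17.68, 17.68 and 14.84 in alpha DT 1 to 4, and the libraries highest in Sst were also the highest in Cacna1i. Alpha Pdx1 DT 1 to 6 had Sst at 16.28, 13.48, 15.49, 17.47, 14.34 and 13.74, and library 4 held both the highest Sst and the highest Cacna1i (7.58) and Cacna2d2 (8.12) of that group. Sst was at 12.34 to 14.84 in alpha Pdx1 and at 13.27 to 15.90 in alpha. Of the 5 delta- and PP-cell markers, 0 passed in alpha DT against alpha in limma, with 2 at an unadjusted p under 0.05, and Sst differed by 2.12 ± 0.94 (unadjusted p = 0.0332, adjusted p = 0.204). In alpha Pdx1 DT against alpha Pdx1, limma called 0 of these 5 markers, with 0 at an unadjusted p under 0.05. With Sst as a covariate, chosen after the data were seen, Cacna1i was at 1.84 (adjusted p = 0.227) and Cacna1c at -0.65 (adjusted p = 0.0823) in alpha DT against alpha, while Cacna2d2 passed in alpha Pdx1 DT against alpha Pdx1 at 2.33 (adjusted p = 0.0375). The mean of the leukocyte list was 7.53 to 11.44 in alpha DT libraries, against 4.20 to 7.01 in alpha libraries, and 4.13 to 10.17 in alpha Pdx1 DT libraries, against 3.74 to 5.15 in alpha Pdx1 libraries. Of its 11 genes tested, 7 were higher in alpha DT than in alpha and 3 in alpha Pdx1 DT than in alpha Pdx1. Of 6 neuronal and Schwann cell markers, 1 was higher in each of these comparisons, and limma called 0 of 15 acinar markers in either, with 1 and 3 at an unadjusted p under 0.05. With that mean as a covariate, Cacna1c was at -0.66 (adjusted p = 0.160) and Cacna1i at 2.29 (adjusted p = 0.343) in alpha DT against alpha, and Cacna2d2 at 2.60 (adjusted p = 0.150) in alpha Pdx1 DT against alpha Pdx1. The part of these cells in the channel values was not tested beyond these fits.

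**Figure D2:**
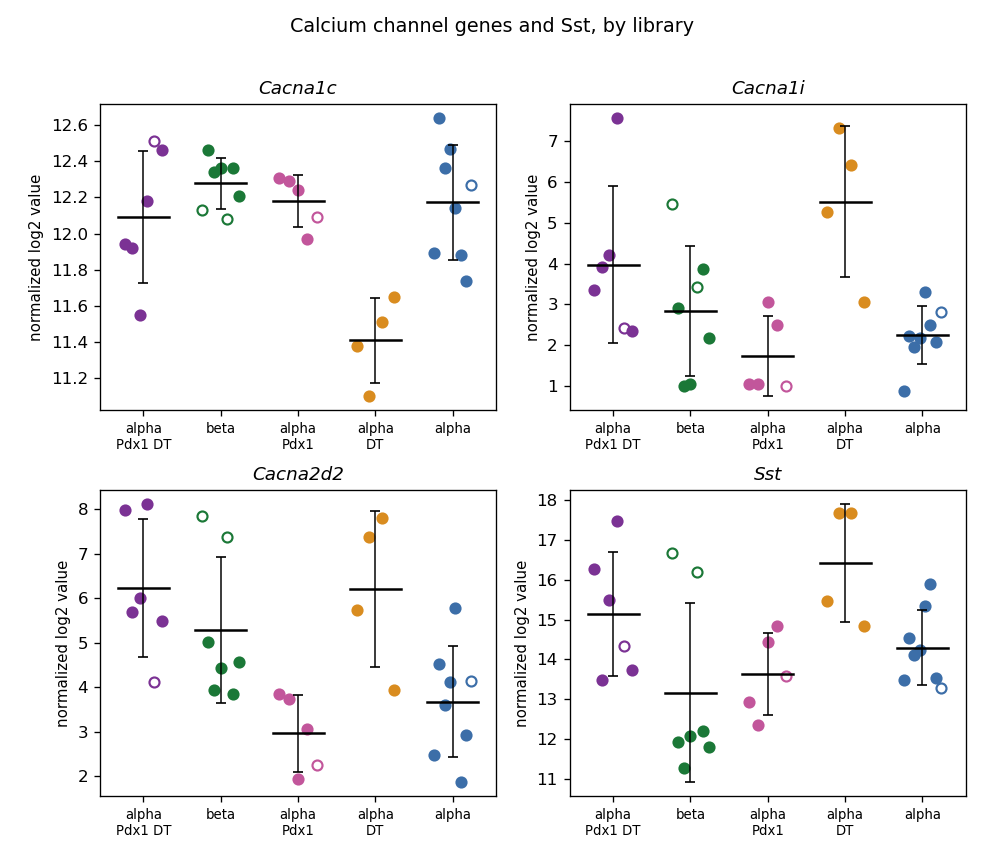
Normalized log2 value of Cacna1c, Cacna1i, Cacna2d2 and the delta-cell hormone gene Sst in each library (points), with the group mean (line) and SD (bar). Open points are the 5 libraries that stood apart. The 4 alpha DT libraries lie below the alpha libraries in Cacna1c, and the libraries high in Cacna1i are among those high in Sst.

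Beta-cells and alpha-cells, the 2 normal cell types, differed in 21 of 38 members, against 34.5% of all genes, with 7 higher in beta (background 16.9%) and 14 lower (background 17.6%). TRP channel genes were 5 of the 7 that were higher, and sodium channel genes 7 of the 14 that were lower. Over the members the median log2 fold change was -0.10, against -0.00154 over all genes tested. A scaling to reference genes moved the median of all genes to -0.68 in this comparison, and 26 members then passed, with 5 higher and 21 lower in beta, against 58.3% of all genes. The 8 reference genes were not level here, with 5 higher and 1 lower in beta. Their mean was 12.13 to 12.34 in beta and 11.36 to 11.76 in alpha, so this scaling is not a neutral one. Markers of other cells differed as well. The leukocyte list mean was 5.88 to 10.56 in beta and 4.20 to 7.01 in alpha, with 2 of 11 genes higher, the delta- and PP-cell list mean 10.11 to 14.56 in beta and 12.83 to 14.65 in alpha, with 3 of 5 lower, and the mesenchymal list mean 4.27 to 6.15 in beta and 6.21 to 9.38 in alpha, with 3 of 4 lower. With the leukocyte mean as a covariate 17 members passed, against 30.1% of all genes, and the part of these cells in the channel values was not tested further.

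Trpm5 had the largest difference of the members. In beta libraries it was at 12.40 at lowest, 13.56 at the median and 13.85 at highest, against 2.09, 5.22 and 7.98 in alpha libraries. The groups lay far apart, with a fold change of 8.43 ± 0.62 (adjusted p = 1.00e-11). Tssc4 overlaps Trpm5 on the opposite strand, so the strand limit given for Scn9a holds here too. Tssc4 was also higher in beta, by 2.07 ± 0.35 (adjusted p = 1.48e-05), while in alpha Pdx1 against alpha it differed by 0.38 ± 0.38 (adjusted p = 0.671). The annotation has opposite-strand overlaps for Trpm3, Cacna1a, Cacna1d, Cacna1h, Cacna2d2, Cacnb1, Cacnb2 and Cacnb4 too, and the same limit holds for them. Of their partners, Chdh (Cacna1d) and A430018G15Rik (Cacnb4) were in the expression table.

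Trpm3 was at 9.79 to 10.50 in beta libraries, against 5.05 to 8.79 in alpha libraries, a difference of 4.11 ± 0.50 (adjusted p = 8.10e-08) with no overlap. Trpm2, a channel opened by ADP-ribose and heat that takes part in insulin secretion, was at 6.98, 7.40 and 8.54 (lowest, median and highest) in beta, against 3.96, 5.38 and 7.16 in alpha. It was higher in beta by 2.23 ± 0.61 (adjusted p = 0.00461), with 1 alpha library inside the beta range. With the leukocyte covariate it did not pass, at 1.38 (adjusted p = 0.0645). Trpm4, the close relative of Trpm5 that is also opened by calcium, was at 8.17 to 8.77 in beta and at 7.30 to 8.76 in alpha, and its difference of 0.41 ± 0.28 did not pass (adjusted p = 0.273). Trpm7, a channel fused to a kinase that handles magnesium, was lower in beta (-0.48 ± 0.19, adjusted p = 0.0451). Leaving out any 1 of 10 of the 15 libraries (alpha 1, 2, 3 or 8, or beta 2 to 7) ended that call, as did leaving out the 5.

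Among the Trpc genes, Trpc4 was at 7.41, 8.17 and 8.59 (lowest, median and highest) in beta, against 3.98, 5.57 and 7.65 in alpha, and was higher by 2.50 ± 0.41 (adjusted p = 1.04e-05). Only the library labelled alpha 8, at 7.65, reached the beta range. Trpc1, which forms channels with Trpc4 and Trpc5, was higher by 0.62 ± 0.20 (adjusted p = 0.0163), but differed by -0.061 under the reference gene scaling and did not pass with the leukocyte covariate, at 0.48 (adjusted p = 0.0952). Trpc2, Trpc5 and Trpc7 did not pass, and Trpc2 overlaps Xntrpc and Xndc1 on the same strand in the annotation, so its values are uncertain. The heat- and stretch-related Trpv2 was low throughout, at 1.64 to 6.67, and did not pass here.

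All 6 sodium channel pore genes were tested, and 5 were lower in beta. Scn3a, a pore found in islet endocrine cells, was at 9.28, 9.57 and 10.98 (lowest, median and highest) in beta, against 12.01, 12.14 and 12.57 in alpha. The groups did not overlap, and the highest beta values, 10.98 and 10.85, were in the libraries labelled beta 1 and beta 5. Scn3a differed by -2.29 ± 0.20 (adjusted p = 8.90e-11). Scn1a (-2.85 ± 0.41), Scn2a1 (-1.34 ± 0.34) and Scn8a (-0.97 ± 0.19), pores best known from neurons, were lower too, with adjusted p-values of 1.41e-06, 0.00219 and 1.13e-04. Scn7a, an atypical sodium channel that senses extracellular sodium, was lower by 1.71 on the log2 scale (fold change -1.71 ± 0.55, adjusted p = 0.0141). Its values were low, and the call ended with an offset added to the values (-0.75, adjusted p = 0.0921) and with the leukocyte covariate (-1.46, adjusted p = 0.0611).

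Scn9a was the exception, at 11.34, 11.84 and 12.10 (lowest, median and highest) in beta, against 10.78, 11.42 and 12.55 in alpha, with a difference of 0.35 ± 0.20 that did not pass (adjusted p = 0.188). Without the 5 libraries it passed as higher in beta, at 0.54 ± 0.19 (adjusted p = 0.0316). Scn3a, Scn2a1, Scn1a, Scn9a and Scn7a are neighbours on chromosome 2, in 1327.8 kb at chr2:65457118-66784914, with gaps of 53.1, 503.3, 39.2 and 38.5 kb in that order. Of this cluster, 4 genes were lower in beta, Scn7a with the limits just given, and Scn9a, between Scn1a and Scn7a, did not pass.

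The sodium channel beta subunits tune the gating and membrane placement of the pore. Scn2b was at 2.16, 3.31 and 6.08 (lowest, median and highest) in beta, against 5.65, 6.62 and 7.43 in alpha. It differed by -2.91 ± 0.43 (adjusted p = 2.30e-06), and the groups overlapped through the library labelled beta 5, at 6.08. Scn3b was lower by 1.92 on the log2 scale (fold change -1.92 ± 0.31, adjusted p = 7.67e-06).

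**Figure D3:**
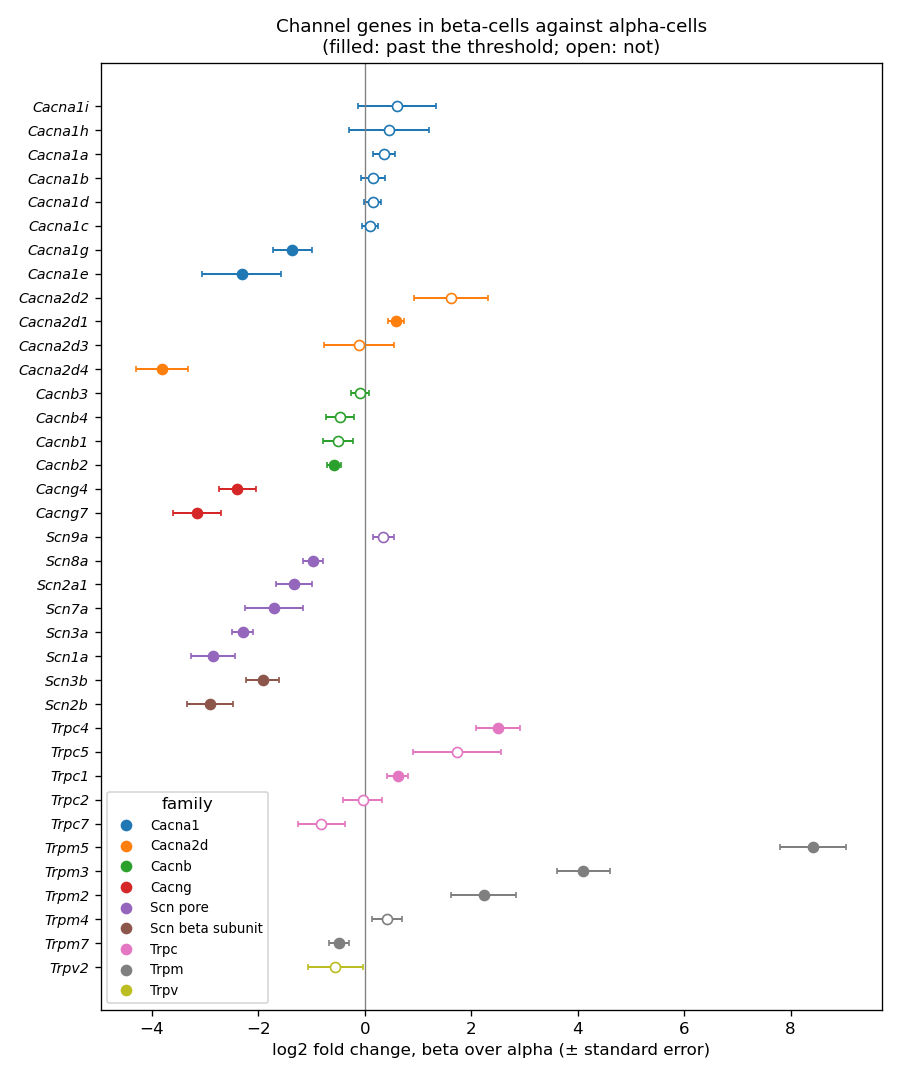
Log2 fold change of channel genes in beta over alpha (points, with standard error bars), ordered by family. Filled points passed the threshold, with Trpm5 at 8.43 farthest to the right and Cacna2d4 at -3.81 farthest to the left.

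The L-type and P/Q-type calcium channel pore genes did not pass between the cell types. Cacna1a, the P/Q-type pore, was at 12.10, 12.30 and 12.50 (lowest, median and highest) in beta, against 11.33, 11.95 and 12.51 in alpha, with a difference of 0.37 ± 0.20 (adjusted p = 0.166). Cacna1c was at 12.08, 12.34 and 12.46 in beta, against 11.74, 12.21 and 12.64 in alpha (0.10 ± 0.14, adjusted p = 0.626). Cacna1d, the other L-type pore of islet cells, was at 12.83, 13.08 and 13.25 in beta, against 12.38, 12.79 and 13.40 in alpha (0.15 ± 0.15, adjusted p = 0.485). In all 3 genes the groups overlapped. Cacna1b, Cacna1h and Cacna1i did not pass either.

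Both Cacna1 genes that passed were lower in beta. The T-type pore gene Cacna1g was at 4.44, 5.24 and 5.94 (lowest, median and highest) in beta, against 5.98, 6.62 and 7.31 in alpha, with no overlap and a difference of -1.36 ± 0.37 (adjusted p = 0.00461). Cacna1e was lower by 2.31 on the log2 scale (fold change -2.31 ± 0.74, adjusted p = 0.0147), or -3.79 ± 0.62 without the 5 libraries, and leaving out beta 7 alone ended the call.

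The auxiliary subunits of calcium channels moved in both directions. Cacna2d4 was at 2.66, 4.66 and 6.64 (lowest, median and highest) in beta, against 7.02, 7.97 and 9.36 in alpha. No library crossed over, and the difference was -3.81 ± 0.49 (adjusted p = 1.44e-07). Cacna2d4 lies 40.1 kb from Cacna1c on chromosome 6. Cacna2d1, the alpha2delta gene of wide expression, was higher in beta by 0.59 ± 0.15 (adjusted p = 0.00184), with 13.36 to 13.75 in beta and 12.72 to 13.34 in alpha, but differed by -0.085 under the reference gene scaling. Cacna2d2 (1.62 ± 0.69, adjusted p = 0.0679) and Cacna2d3 (-0.11 ± 0.66, adjusted p = 0.917) did not pass. Cacnb2, a beta subunit, was at 11.05, 11.21 and 11.49 in beta, against 11.34, 11.78 and 12.31 in alpha, with some overlap (-0.58 ± 0.13, adjusted p = 7.73e-04). Cacnb1, Cacnb3 and Cacnb4 did not pass. Both Cacng genes tested were lower in beta. Cacng7 was at 3.29, 4.58 and 4.98 in beta, against 6.57, 7.51 and 8.51 in alpha (-3.15 ± 0.45, adjusted p = 1.29e-06), and Cacng4 differed by -2.39 ± 0.35 (adjusted p = 1.84e-06).

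**Figure D4:**
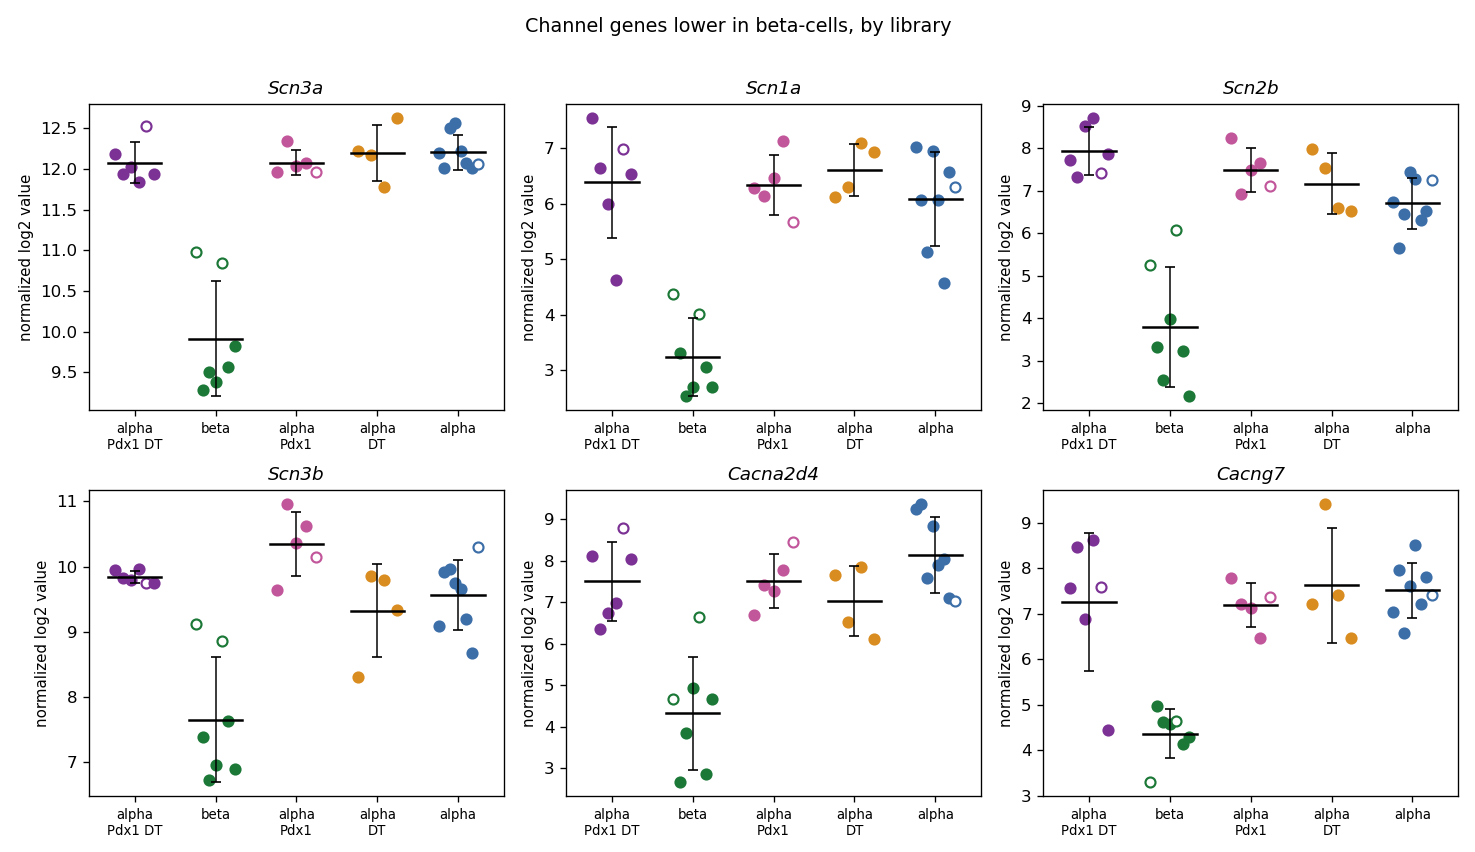
Normalized log2 value of Scn3a, Scn1a, Scn2b, Scn3b, Cacna2d4 and Cacng7 in each library (points), with the group mean (line) and SD (bar). Open points are the 5 libraries that stood apart. Beta libraries are low in each panel, and the open beta points lie above most filled beta points in the 4 sodium channel panels.

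Against beta, alpha Pdx1 DT differed in 17 of 38 members, with 14 higher and 3 lower, against 26.3% of all genes (12.9% higher and 13.4% lower). Both this comparison and that of beta with alpha use the beta libraries, so they are not independent. Scn3a was at 11.84, 11.98 and 12.53 (lowest, median and highest) in alpha Pdx1 DT, and the difference from beta was 2.16 ± 0.22 (adjusted p = 2.42e-09) with no overlap. Scn2b was at 7.33, 7.79 and 8.71 in alpha Pdx1 DT, above all beta libraries (4.14 ± 0.47, adjusted p = 2.52e-08). Scn1a (3.15 ± 0.44), Scn7a (2.89 ± 0.59), Scn3b (2.19 ± 0.33), Scn2a1 (1.59 ± 0.36) and Scn8a (0.93 ± 0.20) were higher as well. The groups of Scn1a, Scn3b and Scn8a did not overlap.

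The Cacna2d and Cacnb genes higher in alpha Pdx1 DT than in beta were Cacna2d4 (3.17 ± 0.52), Cacna2d3 (2.92 ± 0.71), Cacnb4 (0.99 ± 0.28) and Cacnb2 (0.54 ± 0.14). The Cacng genes Cacng7 (2.90 ± 0.49) and Cacng4 (2.39 ± 0.38) were higher too. Over these 6 genes, adjusted p-values ran from 9.01e-06 for Cacng4 to 0.00775 for Cacnb4. Cacnb2 did not pass without the 5 libraries, at 0.45 ± 0.17 (adjusted p = 0.0527). Cacna2d3 was the 1 among these 6 that was also higher in alpha Pdx1 DT than in alpha, and its beta libraries were at 6.82 to 8.63. Trpv2 was at 4.17, 4.75 and 6.67 (lowest, median and highest) in alpha Pdx1 DT, against 2.43, 3.27 and 4.84 in beta, and was higher by 1.62 ± 0.55 (adjusted p = 0.0267). Leaving out alpha Pdx1 DT 5 or 6 or beta 4, 5 or 6 ended the Trpv2 call, as did leaving out the 5 libraries. Trpv2 passed the filter through 5 of 30 libraries, none of them beta, and was not tested under the stricter filter.

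The 3 members lower in alpha Pdx1 DT than in beta were Trpm5 (-6.09 ± 0.67, adjusted p = 3.46e-08), Trpm3 (-1.92 ± 0.53, adjusted p = 0.00710) and Cacna2d1 (-0.53 ± 0.16, adjusted p = 0.0114). Cacna2d1 did not pass under the reference gene scaling (-0.16, adjusted p = 0.547) or with the Sst covariate (-0.45, adjusted p = 0.0638). Of the 8 reference genes, 1 was itself higher and 3 lower in alpha Pdx1 DT than in beta. Trpm5 was at most 9.16 in alpha Pdx1 DT and at least 12.40 in beta. For Trpm3 the alpha Pdx1 DT library 2, at 9.95, was within the beta range. Trpc4 differed from beta by -0.69 ± 0.44 (adjusted p = 0.267) and Trpm2 by -1.30 ± 0.66 (adjusted p = 0.148), and neither passed.

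The order of the 5 group means differed by gene. Trpm5 averaged 7.31 ± 1.48 in alpha Pdx1 DT, 13.40 ± 0.53 in beta, 7.41 ± 0.51 in alpha Pdx1, 3.69 ± 0.55 in alpha DT and 4.98 ± 1.95 in alpha (SD, n = 6, 7, 5, 4 and 8). The alpha Pdx1 DT and alpha Pdx1 means, next to each other in that order, differed by less than their SD (fold change -0.10 ± 0.73, adjusted p = 0.949). Trpm3 averaged 8.29 ± 1.59, 10.22 ± 0.24, 9.72 ± 0.86, 6.18 ± 0.23 and 6.11 ± 1.22 in the same groups, so that the alpha Pdx1 mean lay within its SD of the beta mean, a pair that was not tested. Cacna2d3 averaged 10.26 ± 1.82, 7.34 ± 0.62, 11.19 ± 0.48, 7.11 ± 0.45 and 7.45 ± 1.84, so both groups with forced Pdx1 had means above that of beta, of which alpha Pdx1 DT was tested (2.92 ± 0.71) and alpha Pdx1 was not. Scn3a averaged 12.08 ± 0.25, 9.91 ± 0.71, 12.08 ± 0.15, 12.20 ± 0.35 and 12.21 ± 0.22, and the 4 alpha-cell groups lay within 1 SD of each other.

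**Figure D5:**
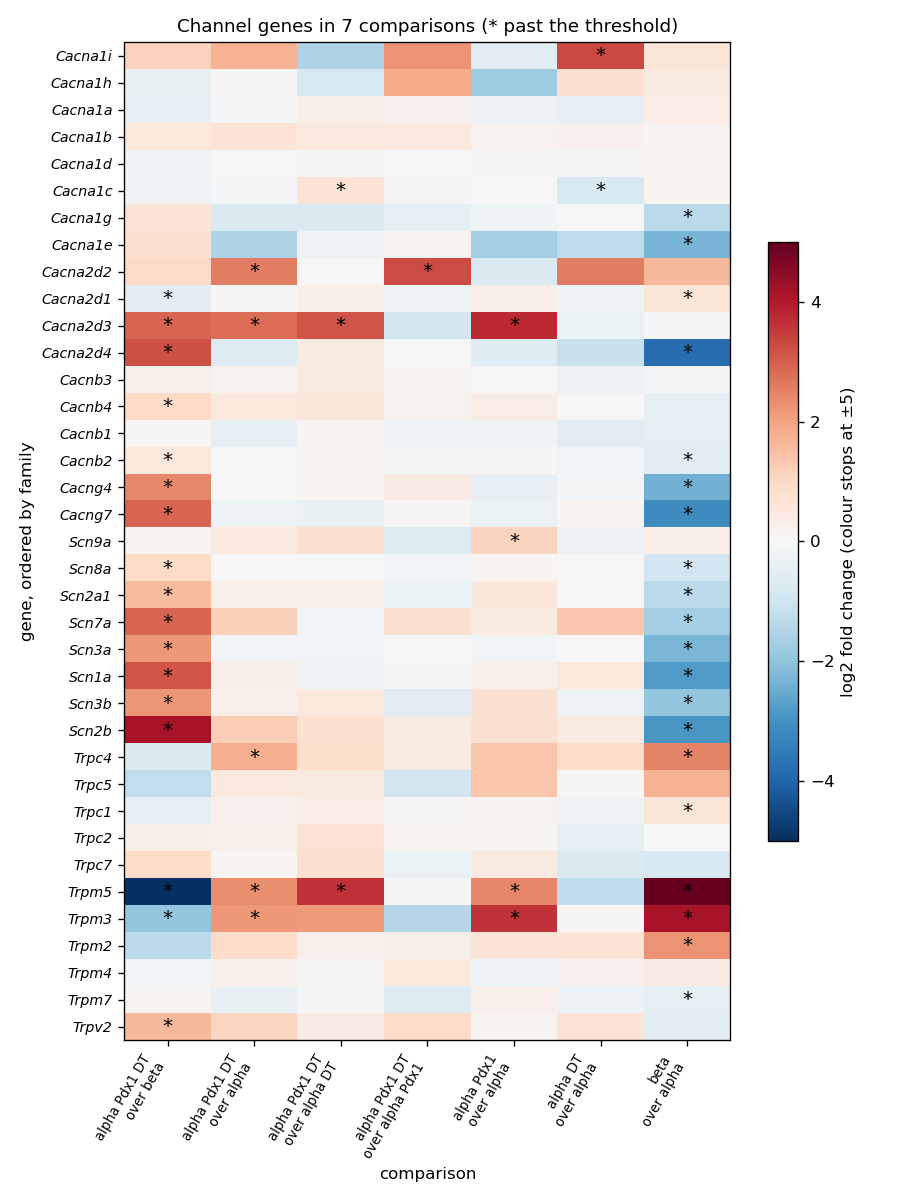
Log2 fold change of channel genes (rows, by family) in 7 comparisons (columns), red where the first-named group was higher and blue where it was lower. Asterisks mark genes past the threshold, most of them in the columns of beta over alpha and of alpha Pdx1 DT over beta, against 1 to 5 in each of the other 5 columns.

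Other genes of calcium handling were read from 2 lists. Of 26 tested genes of calcium stores, pumps and exchangers, 9 were higher and 2 lower in beta than in alpha, against 34.5% of all genes called. They included Atp2a2 (2.73 ± 0.25) and Atp2a3 (2.29 ± 0.19), pumps that load the endoplasmic reticulum, and on the lower side Itpr1 (-1.93 ± 0.18), an inositol trisphosphate receptor, and Atp2a1 (-1.74 ± 0.52). In alpha Pdx1 against alpha, 1 was higher and 1 lower, against 4.33% of all genes. The riser was Ryr3, a ryanodine receptor that releases stored calcium, at 3.55 ± 0.68 (adjusted p = 0.00368), and Itpr3 was lower (-0.73 ± 0.18). Ryr3 averaged 10.66 ± 1.54 in alpha Pdx1 DT, 7.90 ± 0.16 in beta, 11.51 ± 0.48 in alpha Pdx1, 7.48 ± 0.80 in alpha DT and 7.95 ± 1.84 in alpha (SD). It was higher in alpha Pdx1 DT than in beta by 2.76 ± 0.66, and the library labelled alpha 8 held the highest alpha value, 12.22. In alpha Pdx1 DT, 3 were higher and 0 lower than in alpha (Ryr3 2.70 ± 0.64, Atp2a2 0.88 ± 0.26), 2 higher and 0 lower than in alpha DT (Ryr3 3.18 ± 0.77, Orai2 1.23 ± 0.30), 3 higher and 1 lower than in alpha Pdx1 (Slc8a2 1.59 ± 0.40, Letm1 -1.30 ± 0.32), and 2 higher and 7 lower than in beta. The shares of all genes in these 4 comparisons were 7.81%, 2.1%, 9.22% and 26.3%. In alpha DT against alpha, limma called 0 of these 26, with 6 at an unadjusted p under 0.05.

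Of 22 tested channel partners and other cation channels, 2 were higher and 8 lower in beta than in alpha, against 16.9% higher and 17.6% lower of all genes, among them the pacemaker channel gene Hcn4 (2.65 ± 0.40) and Fgf14 (-2.59 ± 0.32), an intracellular modulator of sodium channels. In alpha DT against alpha, 1 of the 22 was higher and 2 lower, against 3.26% of all genes. Mcoln2, a lysosomal TRP channel gene, was higher by 5.03 ± 0.87 (adjusted p = 0.00173), with 4.86 to 7.27 in alpha DT and 0.76 to 2.88 in alpha. Its alpha values reached the bottom of the table, where the lowest value of the library alpha 4 was 0.758. The leukocyte list had 7 of 11 genes higher in the same comparison, and its part in Mcoln2 was not tested. Unc79 (-0.56 ± 0.16) and Rims2 (-0.50 ± 0.14) were lower. Stac2, an adaptor of L-type calcium channels, was lower in alpha Pdx1 than in alpha (-2.93 ± 0.87, adjusted p = 0.0475), in alpha Pdx1 DT than in alpha (-3.56 ± 0.82) and in alpha Pdx1 DT than in alpha DT (-3.75 ± 0.98), comparisons that share libraries. Stac2 was the 1 of the 22 called in each of the first 2, against 4.33% and 7.81% of all genes. Against beta, alpha Pdx1 DT had 8 of the 22 higher and 2 lower, against 26.3% of all genes, with Fgf14 at 2.77 ± 0.35 and Hcn4 at -1.84 ± 0.44. Against alpha Pdx1, where 9.22% of all genes passed, it had 1 higher, Hcn3 (0.93 ± 0.29), and 2 lower, Fgf12 (-0.61 ± 0.18) and Unc79 (-0.57 ± 0.16). Against alpha DT, where 2.1% of all genes passed, it had 1 higher, Rimbp2 (0.75 ± 0.20), and 1 lower, Stac2.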

How the data were processed

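Bulk RNA-seq of sorted mouse islet cells was measured in 30 libraries. The authors deposited quantile-normalized log2 values for 17775 genes. In 28 columns whose headers are bare numbers these deposited values are recorded as a score, since only the unit name differs. The submitters' processing notes name GSNAP and the GRCm38 build, and the counting rule and strand are not given in the sources used here. Read depth is unknown. The number of distinct values below the first quartile, which grows with depth, was 32 to 111 per library.

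The 16633 genes that reached 5 or more in at least 4 libraries were fitted with limma 3.58.1 in R 4.3.3, with 1 mean per group, an intensity trend and robust variances, over all 30 libraries. Two-sided p-values were adjusted by Benjamini-Hochberg within each of 8 contrasts. Members at their library's lowest value were Cacng5 (6 libraries), Cacna1i and Trpc5 (5 each), Cacna1h (2) and Cacna1e (1).

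Every member past the threshold is named, except where a gene is not reported here; counts cover all members tested. Library values are given for the member with the smallest adjusted p in each family and for a fixed set of 8 genes, and from each list up to 2 risers and 2 fallers. Values of members beyond this rule were chosen after they were seen. The members and lists were chosen with earlier results of these data known. Alternatives changed the filter, an offset of 2 to the power 5, the samples fitted, the variance model, library weights, scaling, the libraries left out and covariates. Positions are from GENCODE M21, which matched 39 of 39 members, and promoters from RefSeq, which held 30 members. Figures were drawn with matplotlib 3.10.9 in Python 3.11.15, from tables made with pandas 2.3.3 and numpy 2.4.6.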

Additional observations from a re-analysis of the deposited data

Results flagged for a closer look

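A gap test, which compares the distance of the highest or lowest library from its nearest neighbour with the range of the group, was run on 155 sets of 31 members in 5 groups and found 12 sets in which 1 library stood apart from the rest of its group. Chance gives about 1 in 20 sets, so some of the 12 can be due to chance alone. The 31 members were those called in a comparison and a fixed set of genes.

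Of these, 4 concern the library labelled alpha 8, in which Cacna2d3 was 11.61 against a next value of 7.93, Trpm3 8.79 against 6.74 and Scn9a 12.55 against 11.49, while Cacna1e was 3.31 and the next lowest 5.74. Pdx1 was 11.23 in this library. Another 2 concern the library labelled alpha Pdx1 DT 5, where Cacna2d3 was 6.75 against a next value of 10.45 and Trpc4 5.67 against 7.26, beside a Pdx1 value of 5.51. In beta, Cacna2d3 was 8.63 in the library labelled beta 1 and Cacng4 5.76 in the library labelled beta 5, the libraries with Gcg at the top value. These 4 libraries had been set apart on these same data, by values such as those of Pdx1 and Gcg, so their flags are no independent support. The part of the labels or of other cells in these values was not tested.

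The other 4 libraries stand apart in 1 gene each. Cacna1i was 7.58 in alpha Pdx1 DT 4, which had the highest Sst value of its group at 17.47. Trpm2 was 9.39 in alpha Pdx1 DT 6, which had the fewest distinct low values (32) and the highest leukocyte list mean of its group (10.17). The part of depth or of other cells in this value was not tested. Cacna1g was 4.44 in alpha Pdx1 1 and Scn8a was 10.67 in alpha Pdx1 3.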

How the results depend on the processing

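Of 53 calls of members in a contrast, 51 kept their direction in every fit, 31 passed in all alternatives and 42 passed with each library left out in turn. The exceptions in direction were Cacna2d1 (-0.085) and Trpc1 (-0.061) in beta against alpha under reference gene scaling. Of the 8 reference genes, 5 were themselves higher and 1 lower in that comparison.

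Counts of members past the threshold that moved by over 1.5 times were as follows. In alpha DT against alpha, 2 became 1 under the stricter filter, where Cacna1i was not tested, 1 with library weights, and 0 with only the groups compared, with the leukocyte covariate and with the added Sst covariate (5, 5 and 6 members at an unadjusted p under 0.05 in limma). In alpha Pdx1 against alpha, 4 became 1 with the Rn18s-rs5 covariate. In alpha Pdx1 DT against alpha Pdx1, 1 became 2 with only the groups compared, 4 with library weights and 0 with either covariate (7 members at an unadjusted p under 0.05 for Rn18s-rs5 and 5 for leukocytes). In alpha Pdx1 DT against alpha DT, 3 became 1 with reference gene scaling or the Sst covariate and 0 with only the groups compared (5) or library weights (7). In alpha Pdx1 DT against alpha, 5 became 9 without the 5 libraries and 0 with only the groups compared (12), the Rn18s-rs5 covariate (7) or the leukocyte covariate (9). The shares of all genes moved too. In alpha DT against alpha the share was 3.26%, and 3.45% under the stricter filter, 1.25% with library weights, 0.397% with only the groups compared, 0.331% with the leukocyte and 0.878% with the Sst covariate. In alpha Pdx1 against alpha, 4.33% became 0.685%. In alpha Pdx1 DT against alpha Pdx1, 9.22% became 5.43% with only the groups compared, 22.7% with library weights, and 0% with the Rn18s-rs5 and 0.349% with the leukocyte covariate. Against alpha DT, 2.1% became 0.896% with reference gene scaling, 1.2% with the Sst covariate, 0% with only the groups compared and 0.192% with library weights. Against alpha, 7.81% became 20.3% without the 5 libraries, 0% with only the groups compared or the Rn18s-rs5 covariate and 0.517% with the leukocyte covariate. The cause of these changes was not tested.

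With single libraries left out, members past the threshold numbered 19 to 22 in beta against alpha, 0 to 3 in alpha DT against alpha (0 without alpha DT 2, with 3 at an unadjusted p under 0.05), 3 to 5 in alpha Pdx1 against alpha, and 0 to 0 in the interaction. For alpha Pdx1 DT they numbered 16 to 19 against beta, 1 to 3 against alpha Pdx1, 1 to 5 against alpha DT and 2 to 7 against alpha. Over the same fits the share of all genes was 30.7% to 35.7% in beta against alpha and 1.84% to 6.48% in alpha DT against alpha. In alpha Pdx1 against alpha it was 1.81% to 5.92%, and in the interaction 0% to 0.018%. For alpha Pdx1 DT it was 22.5% to 26.2% against beta and 3.38% to 15.4% against alpha Pdx1. Against alpha DT it was 0.83% to 5.59%, and against alpha 1.85% to 21%. No paired analysis was possible because the labels give no replicate numbers shared between groups. The depth of each library is unknown, which limits what the low values of Cacna1i, Cacna1h, Cacna2d2, Trpc5, Trpv2 and Cacng5 can show.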
